A study of Bos taurus with 15 samples.

Results

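The proteasome genes of bovine (Bos taurus) oocytes and early embryos were followed over 8 stages, from the oocyte to the blastocyst. Members were the genes whose symbol in the platform annotation begins with PSMA, PSMB, PSMC, PSMD, PSME, PSMF or PSMG. The rule took 40 genes of the 9155 named on the array, through 46 probe sets, and each gene was read from its probe set with the highest mean over all arrays. By known role they fell into 6 alpha subunits of the core, 7 standard beta subunits of the core, 3 inducible beta subunits, 6 ATPases of the cap, 7 other cap subunits, 3 activators, 1 inhibitor and 6 assembly chaperones. The symbol rule also took PSME3IP1, which encodes a partner of an activator and is no proteasome component. No probe set was named for PSMA2, PSMA8, PSMB11, PSMC3IP, PSMD3, PSMD7, PSMD8, PSMD12, PSME3 or PSMG4, so these were not analysed here.

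Blastocysts, morulae and oocytes had 3 arrays each, 1-cell embryos had 2, and 2-cell, 4-cell, 8-cell and 16-cell embryos had 1 each. The embryos came from in vitro fertilization and culture of oocytes matured in vitro, taken from ovarian follicles with their cumulus cells. The labels give neither the number of oocytes or embryos per array nor whether the oocyte arrays held immature or matured oocytes. Values are signals, intensities on a linear scale, of RNA amplified in 3 rounds, and a scaled array shows a transcript's share of the RNA, not its amount per embryo. Fewer copies per cell and fewer cells of a kind cannot be told apart in such pooled RNA.

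The proteasome is the main protease of the cytosol and nucleus and degrades proteins tagged with ubiquitin. Its core is a barrel of alpha rings, which gate the entrance, around beta rings, which carry the proteolytic sites. A regulatory cap on the end of the barrel binds the ubiquitin chain, removes it, and unfolds and feeds the substrate through a ring of ATPases, while other activators open the gate without ATP. Oocytes store messenger RNA for the first divisions, and bovine embryos begin large-scale transcription of their own genome around the 8-cell to 16-cell stage, when many proteins laid down in the oocyte are degraded.

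The stage labels were checked against markers. Trophectoderm markers, 11 genes, summed to a signal of 20204 to 38914 in morulae and 43418 to 49411 in blastocysts, against 472 to 1592 in oocytes. In the limma test used below, 7 of the 11 were higher in morulae and 11 in blastocysts. Inner cell mass markers, 4 genes, summed to 23425 to 31400 in morulae and 20688 to 30080.1 in blastocysts, against 4495 to 7457 in oocytes. Of the 4, 3 were higher in morulae and 2 in blastocysts by the same test. SOX2 passed in neither stage, with 152 to 450 in morulae and 64.8 to 91.7 in blastocysts, against 17.3 to 392 in oocytes. Zona pellucida and other oocyte genes, 8 of which were measured, summed to 1008 to 1376 in morulae and 887 to 927 in blastocysts, against 30012 to 53125 in oocytes. In each stage with 3 arrays, the array numbered 3 stood apart from the pair numbered 1 and 2. Of the 40 proteasome genes, 2 to 10 differed by at least 4-fold between an array numbered 3 and another array of its stage, and 0 did between the arrays numbered 1 and 2. Of all 24016 probe sets, 1979 to 3065 and 47 to 352 did so. In oocytes 8 and 10 of the 40 genes differed from oocyte 3, where 3065 and 2772 probe sets did, a larger share for the genes. For GAPDH, probes in the middle of the transcript gave a share of the signal at its 3′ end, which reads RNA completeness, of 0.100 to 0.625 in morulae and 0.339 to 0.643 in blastocysts, against 0.0374 to 0.237 in oocytes. The same share did not follow GAPDH for the other control transcripts, with 0.0636 to 0.887 in morulae and 0.0490 to 0.163 in blastocysts, against 0.0388 to 0.235 in oocytes, for eIF-4E, and 0.0101 to 0.0302 in morulae and 0.00635 to 0.0447 in blastocysts, against 0.0275 to 0.0440 in oocytes, for actin. Spike-in transcripts gave signal on 9 arrays (oocyte 2 and 3, 1-cell 2, the 4 single arrays, morula 3 and blastocyst 3) and were near background on 6. Cumulus and granulosa markers, 19 genes, summed to 9722 to 11551 in morulae and 10806 to 12251 in blastocysts, against 6574 to 7494 in oocytes, with 13648 on the 16-cell array, where VIM stood at 1959. HAS2 alone carried the difference of morulae and blastocysts from oocytes. Without it the sums were 1100.2 to 2294 in morulae and 2767 to 5226 in blastocysts, against 5076 to 5719 in oocytes. HAS2 did not carry that of the 16-cell array, which still summed to 8938 without it. COL1A2 stood at 2432, LUM at 1397 and FST at 945 on that array. Of the same list, 1 gene rose and 4 fell in morulae, and 4 rose and 3 fell in blastocysts. Its steroid genes and FSHR, a hormone receptor gene, differed. CYP11A1, CYP19A1 and FSHR stayed at 1.00 to 59.6 on all arrays. STAR had 78.0 to 907 in morulae, against 2537 to 2958 in oocytes. HSD3B1 had 1458 to 3867 in blastocysts and 780 on the 16-cell array, against 26.8 to 60.8 in oocytes. Blood and immune markers, 6 genes, summed to 452 to 1719 in morulae and 233 to 569.6 in blastocysts, against 171 to 265 in oocytes. HBB, a globin, was the 1 of these past the test in morulae, and PTPRC, which marks white blood cells, stayed at 13.3 to 37.0 on all arrays. The part of these differences in the results below was not tested, except where values are given within a group of arrays.

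In morulae, proteasome messages stood higher than in oocytes for 17 of the 40 genes and lower for 2, and 21 did not pass the test (limma, adjusted p below 0.05 over all probe sets). The background was 17.7% of named genes higher and 8.63% lower. The median log2 change was 1.09 over the 40 genes and 0.14 over all named genes. Of the 40 changes 31 were positive, where 56.7% of those of all named genes were. Higher signals were spread over every class: 2 of 6 alpha subunits, 3 of 7 standard beta subunits, 1 of 3 inducible subunits, 5 of 6 ATPases, 2 of 7 other cap subunits, 1 of 3 activators, the inhibitor and 2 of 6 chaperones. The class median was highest in the cap ATPases, at 3.26, followed by 2.34 for the standard beta subunits, 0.70 for the alpha subunits, 0.62 for the inducible subunits, 0.55 for the other cap subunits, 0.35 for the activators and -0.00 for the chaperones. Differences between classes were not tested. Every morula array lay above every oocyte array for 21 of the 40 genes, the 17 called higher among them. The share of all named genes with this order was not counted. For the 17 genes a split of the arrays can therefore change the size of the difference but not its sign. The log2 differences were 0.88 to 5.85 within the arrays near background for spike-ins (2 morula arrays against 1 oocyte array) and 0.38 to 4.98 within those with spike-in signal (1 against 2). Without the arrays numbered 3, 23 genes were higher, the same 17 and PSMA3, PSMB1, PSMB7, PSMB9, PSMD14 and PSME2, and only PSMD5 was lower. Over all 24016 probe sets the same change moved the higher count from 2830 to 4336 and the lower count from 1720 to 2766.

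**Figure D1:**
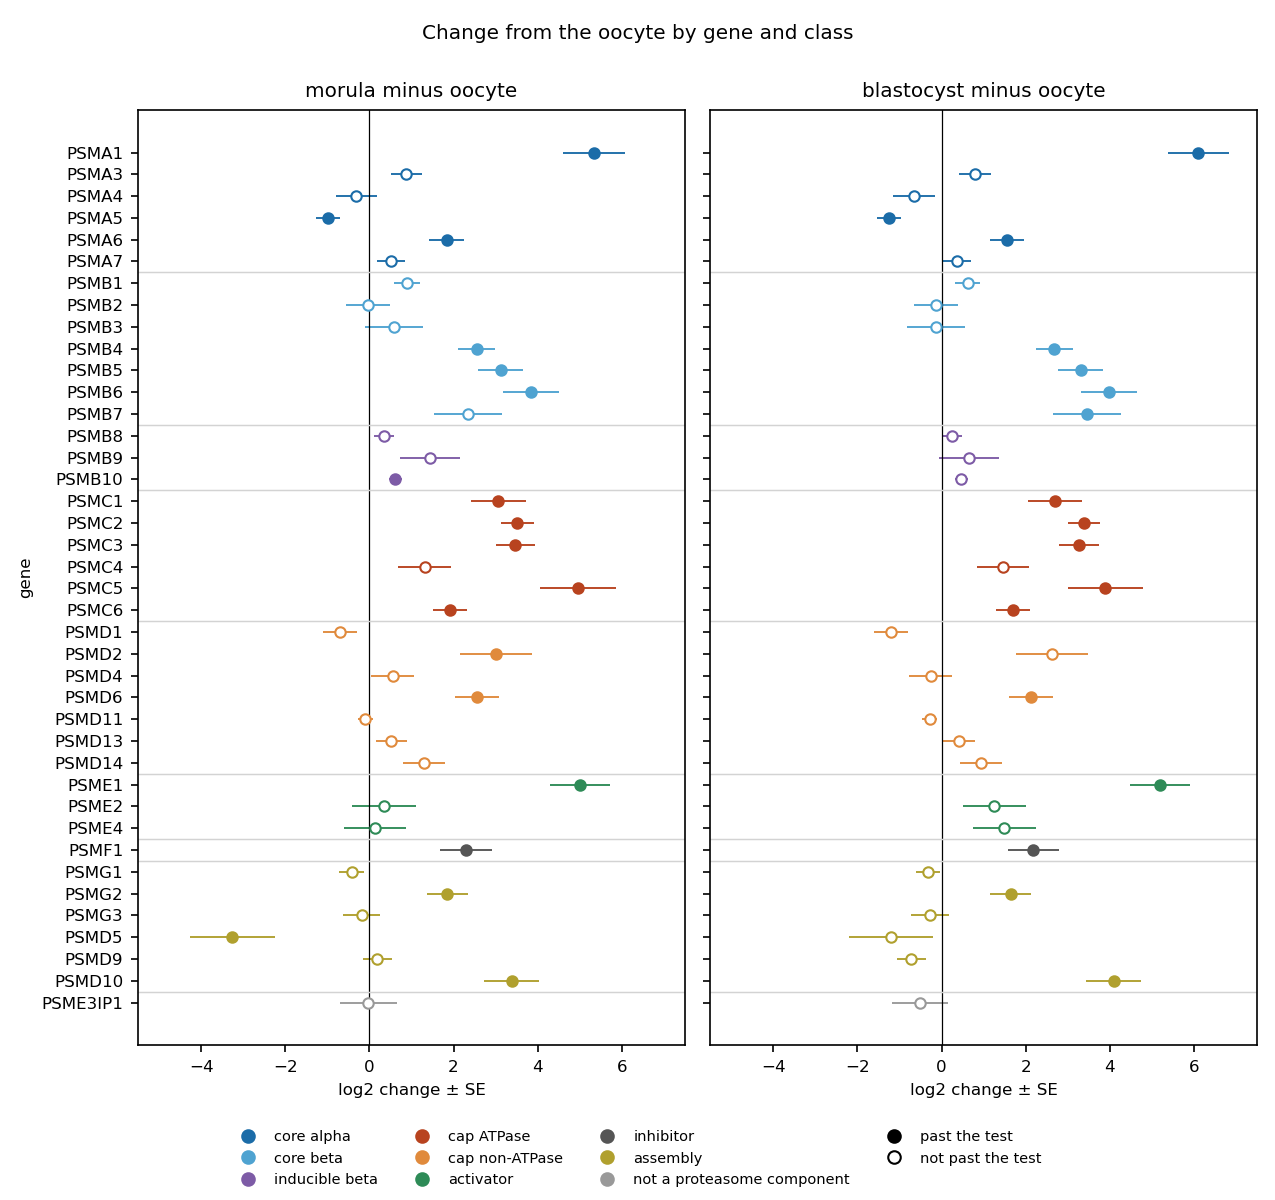
Log2 change with its standard error for each proteasome gene, in morulae minus oocytes (left) and blastocysts minus oocytes (right), coloured by class, with filled points past the test. PSMA1 and PSME1 lie farthest to the right in both panels, 5 of 6 cap ATPases are filled in both, and PSMA5 is filled left of 0 in both.

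Blastocysts gave a like picture against the same oocyte arrays. There 16 genes stood higher and 1 lower, against a background of 17.8% higher and 8.95% lower, with a median log2 change of 1.10 over the 40 genes and 0.10 over all named genes. Since the oocyte arrays are shared, the counts of the morula and blastocyst comparisons are not independent of each other. Every blastocyst array lay above every oocyte array for 20 of the 40 genes, the 16 among them, and the share of all named genes was not counted. For the 16 the log2 differences were 1.61 to 6.52 near background for spike-ins (2 blastocyst arrays against 1 oocyte array). They were 1.01 to 5.52 with spike-in signal (1 against 2). Without the arrays numbered 3 the count was 21 higher and 1 lower. Over all probe sets the higher count moved from 2856 to 4152 and the lower count from 1768 to 2654. Between blastocysts and morulae no proteasome gene passed the limma test, against a background of 0.24% of genes called. At an unadjusted p below 0.05, which 9.26% of genes reached, there was 1, PSMD9, a chaperone of cap assembly, with a log2 change of -0.90 (SE 0.34, adjusted p = 0.539).

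The changes by array are shown first as a whole.

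**Figure D2:**
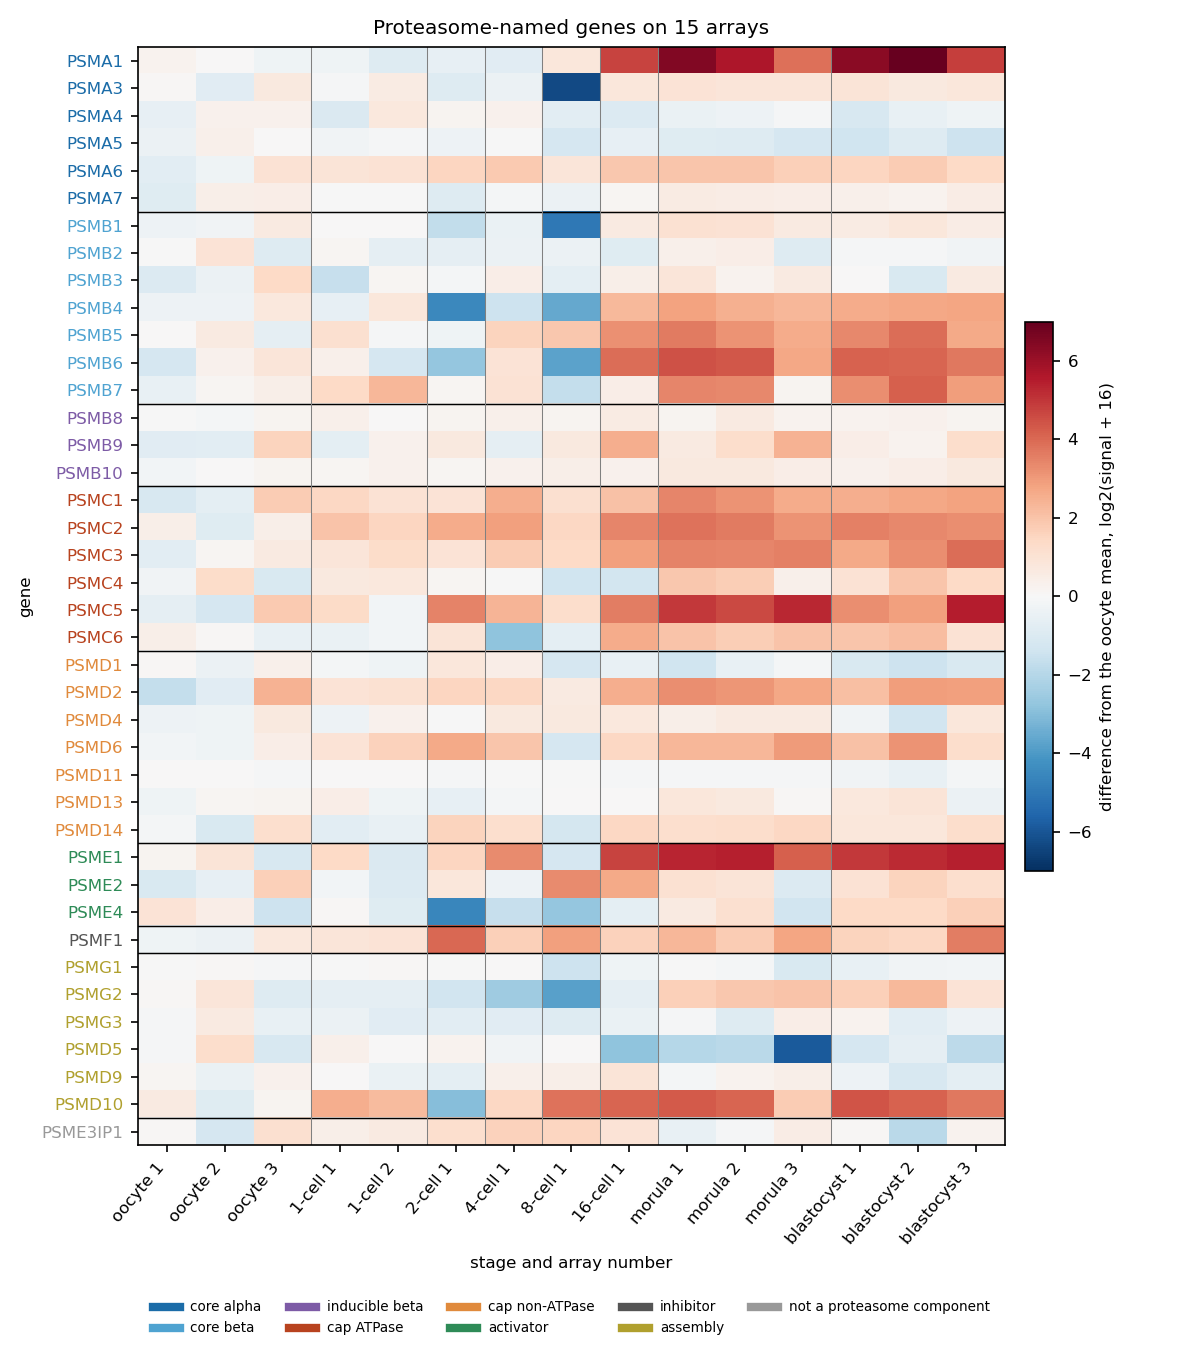
Difference of each gene on each array from its oocyte mean, in log2(signal + 16), with genes down the page by class and the 15 arrays across by stage. The right side from the 16-cell array on is red for most ATPases and for PSMA1, PSMB4, PSMB5, PSMB6 and PSME1, the 8-cell column holds deep blue cells for PSMA3, PSMB1, PSMB4, PSMB6 and PSMG2, and the row of PSMD11 is nearly white throughout.

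Among the alpha subunits, PSMA1 had the largest change of all members. Its signal was 2821, 1628 and 447 in morulae and 2514, 4602 and 899.9 in blastocysts, against 21.3, 17.1 and 10.3 in oocytes, a log2 change of 5.34 (SE 0.73, adjusted p = 0.000765) in morulae and 6.11 (SE 0.73, adjusted p = 0.000383) in blastocysts. No array of the groups overlapped. The earlier embryos stayed low, at 9.76 and 1.00 in 1-cell embryos, then 5.28 at the 2-cell, 2.12 at the 4-cell, 39.9 at the 8-cell and 827 at the 16-cell stage. Changes of signals this low are understated by the constant of 16 added before the log.

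PSMA5 went the other way. It had 4113, 3907 and 3302 in morulae and 2839, 3979 and 2671 in blastocysts, against 5682, 9643 and 7529.9 in oocytes, with log2 changes of -0.98 (SE 0.28, adjusted p = 0.0339) and -1.25 (SE 0.28, adjusted p = 0.011). Early embryos had 6289.6 and 7152 at the 1-cell stage, then 5716 at the 2-cell, 7188 at the 4-cell, 3251 at the 8-cell and 5059 at the 16-cell stage. All arrays of the 8-cell stage and after lay below all oocyte arrays. The morula call was lost on leaving out oocyte 2, oocyte 3 or any morula array (adjusted p = 0.0577 to 0.120) and without all arrays numbered 3, while the blastocyst call held in each of 18 alternative fits. PSMA6 rose, with 6029.9, 5952 and 4928 in morulae and 4437, 5362 and 4125 in blastocysts, against 942, 1248 and 3200.1 in oocytes, and its log2 change was 1.84 (SE 0.41, adjusted p = 0.0113) in morulae and 1.56 (SE 0.41, adjusted p = 0.0247) in blastocysts. Its blastocyst call was lost without oocyte 1, oocyte 2, blastocyst 1 or blastocyst 2 (adjusted p = 0.0635 to 0.0838).

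PSMA3 was lowest on the 8-cell array. It had 5882, 5416 and 5332 in morulae and 5633, 4893 and 5135 in blastocysts, against 3222, 1741 and 4797 in oocytes, and did not pass the test in either (log2 changes 0.88 (SE 0.38, adjusted p = 0.142) and 0.79 (SE 0.38, adjusted p = 0.185)). Its signals were 2819.7 and 4515 in 1-cell embryos, then 1618 at the 2-cell, 2260.1 at the 4-cell, 22.3 at the 8-cell and 5139.5 at the 16-cell stage. The 2-cell and 8-cell arrays lay below every oocyte array, the 8-cell array by far, and neither level has a replicate. PSMA4 and PSMA7 did not pass any test, with log2 changes in morulae of -0.31 and 0.51.

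The beta rings hold the proteolytic sites, and the subunits with active sites are PSMB5 (cutting after hydrophobic residues), PSMB6 (after acidic residues) and PSMB7 (after basic residues). PSMB5 had 1636, 1179 and 789 in morulae and 1343, 2012 and 825 in blastocysts, against 118, 192 and 69.8 in oocytes, with log2 changes of 3.12 (SE 0.54, adjusted p = 0.00281) and 3.31 (SE 0.54, adjusted p = 0.00212). It was at 273 and 109 in 1-cell embryos and then at 91.9 at the 2-cell, 380.4 at the 4-cell, 480.3 at the 8-cell and 1219 at the 16-cell stage. The 4-cell, 8-cell and 16-cell arrays all lay above every oocyte array.

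PSMB6 rose more steeply. It had 9957, 9092 and 2913 in morulae and 8007, 7577 and 5890.2 in blastocysts, against 183, 543 and 802 in oocytes, and its log2 change was 3.84 (SE 0.67, adjusted p = 0.00294) in morulae and 3.98 (SE 0.67, adjusted p = 0.00246) in blastocysts. Before that it was at 569 and 187 in 1-cell embryos and then at 52.7 at the 2-cell, 866 at the 4-cell, 17.9 at the 8-cell and 6763 at the 16-cell stage. The 2-cell and 8-cell arrays lay below every oocyte array, and the 4-cell and 16-cell arrays above.

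PSMB7 had 650.2, 630.1 and 54.9 in morulae and 580.3, 1098 and 453 in blastocysts, against 26.4, 53.0 and 64.6 in oocytes. Morula 3 fell within the oocyte range, unlike the other morula arrays, and the log2 change of 2.34 (SE 0.81, adjusted p = 0.0746) did not pass. It passed without morula 3, without all arrays numbered 3 and with the replicate number as a block. In blastocysts the change was 3.46 (SE 0.81, adjusted p = 0.0146), lost without oocyte 1 or blastocyst 2 (adjusted p = 0.0545 and 0.0564). Early embryos had 144 and 298 at the 1-cell stage, then 52.6 at the 2-cell, 109.6 at the 4-cell, 3.66 at the 8-cell and 68.7 at the 16-cell stage.

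Of the beta subunits without an active site, PSMB4 passed in both stages. It had 8890.2, 7107 and 6433 in morulae and 7535, 8247 and 8699 in blastocysts, against 963, 989 and 2064 in oocytes, with log2 changes of 2.55 (SE 0.44, adjusted p = 0.00271) and 2.68 (SE 0.44, adjusted p = 0.00208). It also dipped at the first cleavages, with 833 and 2199.9 in 1-cell embryos, then 40.3 at the 2-cell, 449.8 at the 4-cell, 89.7 at the 8-cell and 6198 at the 16-cell stage. PSMB1 had a like dip, with 1604 at the 2-cell, 3765 at the 4-cell, 146 at the 8-cell and 8053 at the 16-cell stage, and log2 changes in morulae and blastocysts of 0.90 (SE 0.30, adjusted p = 0.0652) and 0.62 (SE 0.30, adjusted p = 0.188), neither past the test. PSMB2 and PSMB3 did not pass any test, with log2 changes in morulae of -0.03 and 0.59. The second probe set of PSMB2 did not pass either.

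The inducible subunits PSMB8, PSMB9 and PSMB10 take the places of PSMB5, PSMB6 and PSMB7 in the immunoproteasome, the form that interferon induces in immune and other cells. PSMB8 was flat, with 38.1, 57.4 and 40.4 in morulae and 41.9, 42.4 and 38.8 in blastocysts, against 30.6, 27.9 and 37.8 in oocytes, and log2 changes of 0.34 (SE 0.23, adjusted p = 0.361) and 0.25 (SE 0.23, adjusted p = 0.521). Its signals in 1-cell embryos were 45.0 and 32.1, then 38.5 at the 2-cell, 44.5 at the 4-cell, 39.5 at the 8-cell and 54.5 at the 16-cell stage. Over the 15 arrays it stayed between 27.9 and 57.4.

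PSMB9 had 479, 741 and 1714 in morulae and 433, 365 and 728 in blastocysts, against 166, 177 and 918 in oocytes, and its log2 changes were 1.44 (SE 0.72, adjusted p = 0.206) and 0.65 (SE 0.72, adjusted p = 0.596). Oocyte 3 lay above every other oocyte array and above morula 1 and morula 2. Without oocyte 3, without all arrays numbered 3 or with the replicate block, the morula change passed. Early embryos had 184 and 383 at the 1-cell stage, then 495 at the 2-cell, 195 at the 4-cell, 489 at the 8-cell and 1847 at the 16-cell stage, so the 16-cell array held its highest signal.

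PSMB10 passed in morulae at the bottom of the scale. It had 17.8, 17.3 and 13.1 in morulae and 9.81, 12.6 and 16.9 in blastocysts, against 2.20, 4.84 and 7.86 in oocytes, with log2 changes of 0.62 (SE 0.15, adjusted p = 0.0186) and 0.47 (SE 0.15, adjusted p = 0.0571). In 1-cell embryos it was at 7.06 and 9.34, then at 7.28 at the 2-cell, 10.0 at the 4-cell, 11.4 at the 8-cell and 9.32 at the 16-cell stage. With no detection call, signals this low cannot be placed above background, and the morula call was lost with either oocyte 1 or 2, or either morula 1 or 2, left out (adjusted p = 0.0547 to 0.0701), and with arrays centred on their medians. Set side by side in morulae, the standard and inducible partners changed by 3.12 and 0.34 (PSMB5 and PSMB8), 3.84 and 1.44 (PSMB6 and PSMB9) and 2.34 and 0.62 (PSMB7 and PSMB10), with no test of the pairs. The constant of 16 understates changes of low signals, those of PSMB10 most. The PSMB10 change in morulae ran from 0.22 to 1.62 over 17 alternative fits, so the sizes within the pairs are not alike in scale. PSMB8 and PSMB9 are neighbours in the genome, with only the start of TAP1, a peptide transporter gene, between them in assembly ARS-UCD2.0.

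**Figure D3:**
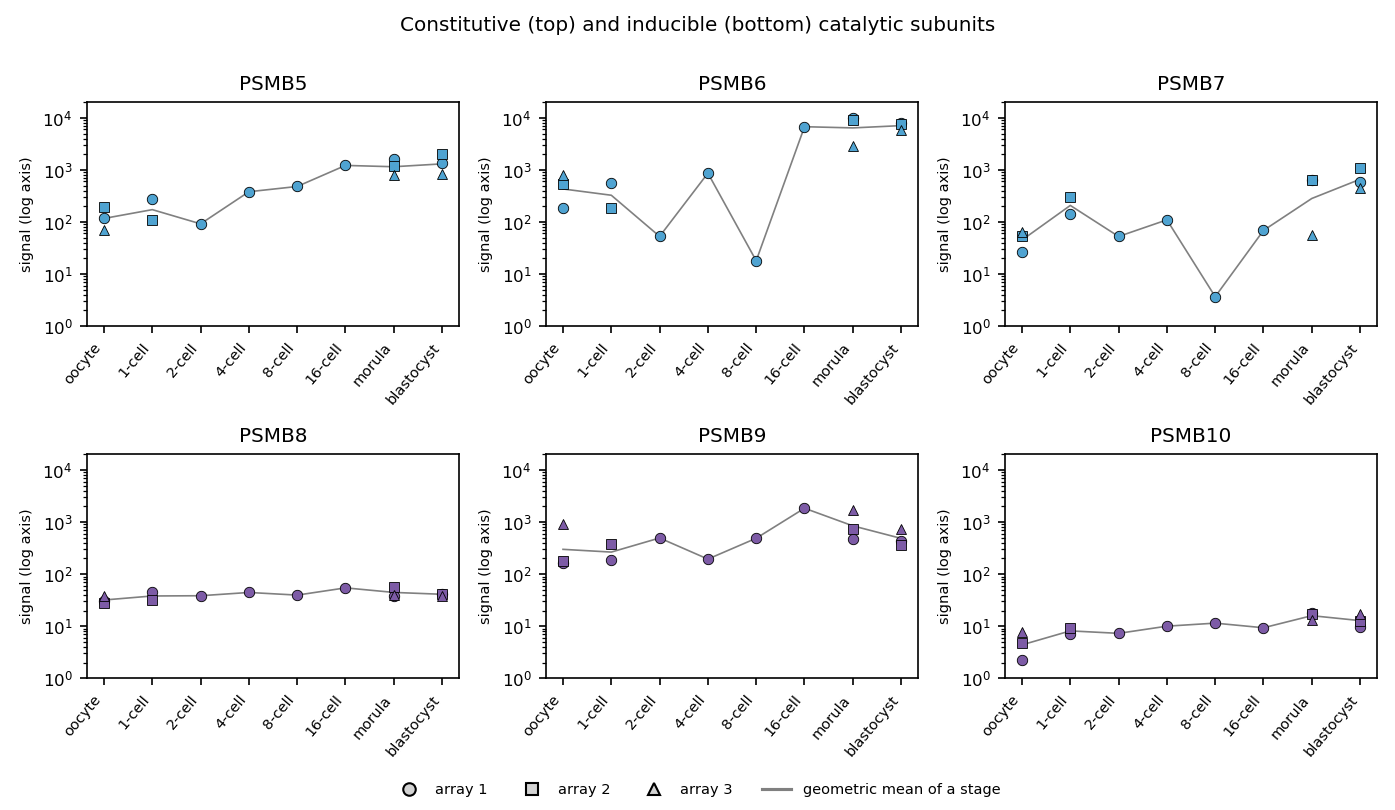
Signals on a log axis by stage for the standard catalytic subunits PSMB5, PSMB6 and PSMB7 (top) and the inducible PSMB8, PSMB9 and PSMB10 (bottom), with a marker per array number and a line through the geometric mean of each stage. The upper genes end above their oocyte arrays in blastocysts, PSMB6 and PSMB7 dip at the 8-cell array to 17.9 and 3.66, and PSMB8 stays between 27.9 and 57.4.

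The ATPases PSMC1 to PSMC6 form the ring at the base of the cap that unfolds substrates and pushes them into the core. All 6 log2 changes were positive in morulae, from 1.31 to 4.96, and 5 passed there and in blastocysts. PSMC5 had 1661, 1336 and 2130.2 in morulae and 507, 389 and 2460.1 in blastocysts, against 19.1, 7.78 and 177 in oocytes, and its log2 changes were 4.96 (SE 0.89, adjusted p = 0.00362) and 3.89 (SE 0.89, adjusted p = 0.013). Every morula and blastocyst array exceeded every oocyte array, although the oocyte arrays themselves ranged from 7.78 to 177. It was at 119.8 and 31.8 in 1-cell embryos and then at 577 at the 2-cell, 264 at the 4-cell, 114 at the 8-cell and 638 at the 16-cell stage. The 2-cell array was already above all oocyte arrays. The second probe set of PSMC5 passed as well, with 3.29 (SE 0.63, adjusted p = 0.0052) in morulae and 2.89 (SE 0.63, adjusted p = 0.0103) in blastocysts. The blastocyst call of the first was lost without oocyte 2 (log2 3.29, adjusted p = 0.0524).

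PSMC2 was higher from the first cleavages on. It had 8923, 8213 and 5708 in morulae and 7385, 6829 and 6332 in blastocysts, against 863, 344 and 865 in oocytes, with log2 changes of 3.52 (SE 0.39, adjusted p = 0.000235) and 3.39 (SE 0.39, adjusted p = 0.000296). In 1-cell embryos it was at 2619.9 and 1856, then at 3940.1 at the 2-cell, 4829 at the 4-cell, 1761 at the 8-cell and 7102 at the 16-cell stage. With the probe set used, each of these arrays lay above every oocyte array. Its 1-cell change of 1.77 (SE 0.43, adjusted p = 0.173) did not pass the test. The second probe set changed by 4.69 (SE 0.97, adjusted p = 0.0076) in morulae and 4.80 (SE 0.97, adjusted p = 0.00673) in blastocysts. With it the 8-cell array, at 777.6, lay below oocyte 1, at 889.7, and the other early arrays lay above every oocyte array. The probe set used for PSMC2 carries the platform's suffix for probes shared among transcripts, as do those of PSMB2 and PSMD4, and signal from another transcript was not tested.

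PSMC3 had 1586, 1527 and 1619.7 in morulae, against 69.8, 140.2 and 208 in oocytes, a log2 change of 3.47 (SE 0.47, adjusted p = 0.000705). PSMC1 had 5998, 4973 and 3302 in morulae, against 244, 331 and 1876 in oocytes, a log2 change of 3.06 (SE 0.65, adjusted p = 0.00855), with oocyte 3 well above the other oocyte arrays. PSMC6 had 3402, 2753 and 3421 in morulae, against 1131, 892 and 572 in oocytes, a log2 change of 1.91 (SE 0.40, adjusted p = 0.00834). The groups did not overlap for any of them. The second probe set of PSMC6 did not pass, at 1.09 (SE 0.57, adjusted p = 0.23). In blastocysts PSMC3, PSMC1 and PSMC6 changed by 3.27, 2.69 and 1.70, all past the test, with the call lost for PSMC1 without oocyte 1 or 2 (adjusted p = 0.0564 and 0.0625) and for PSMC6 without blastocyst 1 or 2 (adjusted p = 0.0571 and 0.0584). PSMC4 did not pass, with changes of 1.31 (SE 0.62, adjusted p = 0.181) in morulae and 1.47 (SE 0.62, adjusted p = 0.136) in blastocysts.

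The other cap subunits varied more in direction. PSMD2, a scaffold of the cap base, had 4440.5, 3993 and 3078 in morulae and 2050.3, 3575 and 3443 in blastocysts, against 135, 258 and 2573 in oocytes, with log2 changes of 3.00 (SE 0.86, adjusted p = 0.035) and 2.63 (SE 0.86, adjusted p = 0.0589). Oocyte 3 stood about as high as some embryo arrays, and the morula call was lost on leaving out oocyte 1, oocyte 2 or any morula array (adjusted p = 0.0598 to 0.119). PSMD6, a subunit of the lid, had 317, 319 and 521 in morulae and 258, 572 and 139 in blastocysts, against 42.4, 38.7 and 77.0 in oocytes, with log2 changes of 2.55 (SE 0.52, adjusted p = 0.00691) and 2.13 (SE 0.52, adjusted p = 0.017). Its groups did not overlap with the probe set used. Its second probe set changed by 3.20 (SE 1.05, adjusted p = 0.0596) in morulae. In blastocysts that probe set had 328, 330 and 12.2, against 10.3, 10.9 and 20.3 in oocytes, and these groups overlapped. The blastocyst call of the first probe set was lost without oocyte 1, oocyte 2 or blastocyst 2 (adjusted p = 0.0524 to 0.0617).

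PSMD14, the enzyme that removes the ubiquitin chain, had 3722, 3775 and 4469.6 in morulae and 2864, 2784 and 3763 in blastocysts, against 1492, 752 and 3733 in oocytes. Its log2 changes of 1.29 (SE 0.50, adjusted p = 0.104) and 0.94 (SE 0.50, adjusted p = 0.235) did not pass, and oocyte 3 overlapped the embryos. It was at 968 and 1130.2 in 1-cell embryos and then at 4872 at the 2-cell, 3681 at the 4-cell, 669 at the 8-cell and 4377 at the 16-cell stage. The 2-cell array held its highest signal.

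PSMD4, a receptor for ubiquitin chains, had 4685, 5358 and 5469.7 in morulae and 3002, 1397 and 6011 in blastocysts, against 2717, 2841 and 5638 in oocytes, and log2 changes of 0.55 (SE 0.51, adjusted p = 0.513) and -0.26 (SE 0.51, adjusted p = 0.787). The groups overlapped. Early embryos had 2737 and 4353 at the 1-cell stage, then 3465 at the 2-cell, 5725 at the 4-cell, 5698 at the 8-cell and 5803 at the 16-cell stage. The second probe set of PSMD4 had 403, 632 and 172 in morulae, against 91.0, 830 and 681 in oocytes. It had 350, 376 and 901 in blastocysts, and its groups overlapped too. PSMD11, a lid subunit, had the narrowest range of the members on the log2 scale, from 7924 to 11548 over the 15 arrays, near the top of the scale of 0.39 to 20788, where saturation was not tested. PSMD1, PSMD11 and PSMD13 did not pass any test, with log2 changes in morulae of -0.69, -0.09 and 0.52.

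The activators moved unlike each other. PSME1, the alpha chain of the ring-shaped activator that interferon induces, had 3098, 3349.9 and 1399.5 in morulae and 2316, 2846 and 3264 in blastocysts, against 73.3, 129 and 19.1 in oocytes. Its log2 changes were 5.00 (SE 0.71, adjusted p = 0.000964) and 5.19 (SE 0.71, adjusted p = 0.000814), and no groups overlapped. On the way it was at 186 and 21.5 in 1-cell embryos, then at 205 at the 2-cell, 743 at the 4-cell, 18.0 at the 8-cell and 1993 at the 16-cell stage.

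PSME2 encodes the beta chain of the same ring, and the genes are neighbours with only the start of EMC9 between them in ARS-UCD2.0. It had 194, 175 and 36.1 in morulae and 187, 283 and 214 in blastocysts, against 31.6, 51.4 and 301 in oocytes, with log2 changes of 0.35 (SE 0.75, adjusted p = 0.805) and 1.26 (SE 0.75, adjusted p = 0.295). The groups overlapped, and the difference between PSME1 and PSME2 was not tested. The array numbered 3 was the highest of the oocytes and the lowest of the morulae, and PSME2 passed in both stages when the arrays numbered 3 were left out. Its early signals were 71.2 and 36.7 in 1-cell embryos, then 155 at the 2-cell, 62.8 at the 4-cell, 979 at the 8-cell and 612 at the 16-cell stage. Its highest signals were on the 8-cell and 16-cell arrays.

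PSME4, a large single-chain activator known for degradation of histones in male germ cells of the mouse, dipped and came back. It had 1954, 2687 and 488 in morulae and 3300.5, 3358 and 4042 in blastocysts, against 2414, 1756 and 454 in oocytes, with log2 changes of 0.14 (SE 0.74, adjusted p = 0.932) and 1.50 (SE 0.74, adjusted p = 0.201), neither past the test. Early embryos had 1301 and 700.2 at the 1-cell stage, then 37.3 at the 2-cell, 397 at the 4-cell, 179 at the 8-cell and 774 at the 16-cell stage. All blastocyst arrays lay above all morula and oocyte arrays.

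PSMF1, which inhibits the core in the test tube, had 522, 359 and 718 in morulae and 298, 276 and 1261 in blastocysts, against 72.7, 63.7 and 160.4 in oocytes. Its log2 changes were 2.30 (SE 0.61, adjusted p = 0.0254) and 2.18 (SE 0.61, adjusted p = 0.0314). Early embryos had 176 and 191 at the 1-cell stage, then 1737 at the 2-cell, 321 at the 4-cell, 759 at the 8-cell and 319 at the 16-cell stage, so the 2-cell array held its highest signal. The morula call was lost without oocyte 1, oocyte 2, morula 1 or morula 3 (values of 0.0686 to 0.0891 for the adjusted p), and the blastocyst call without oocyte 1, oocyte 2 or blastocyst 3 (adjusted p = 0.0657 to 0.103).

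**Figure D4:**
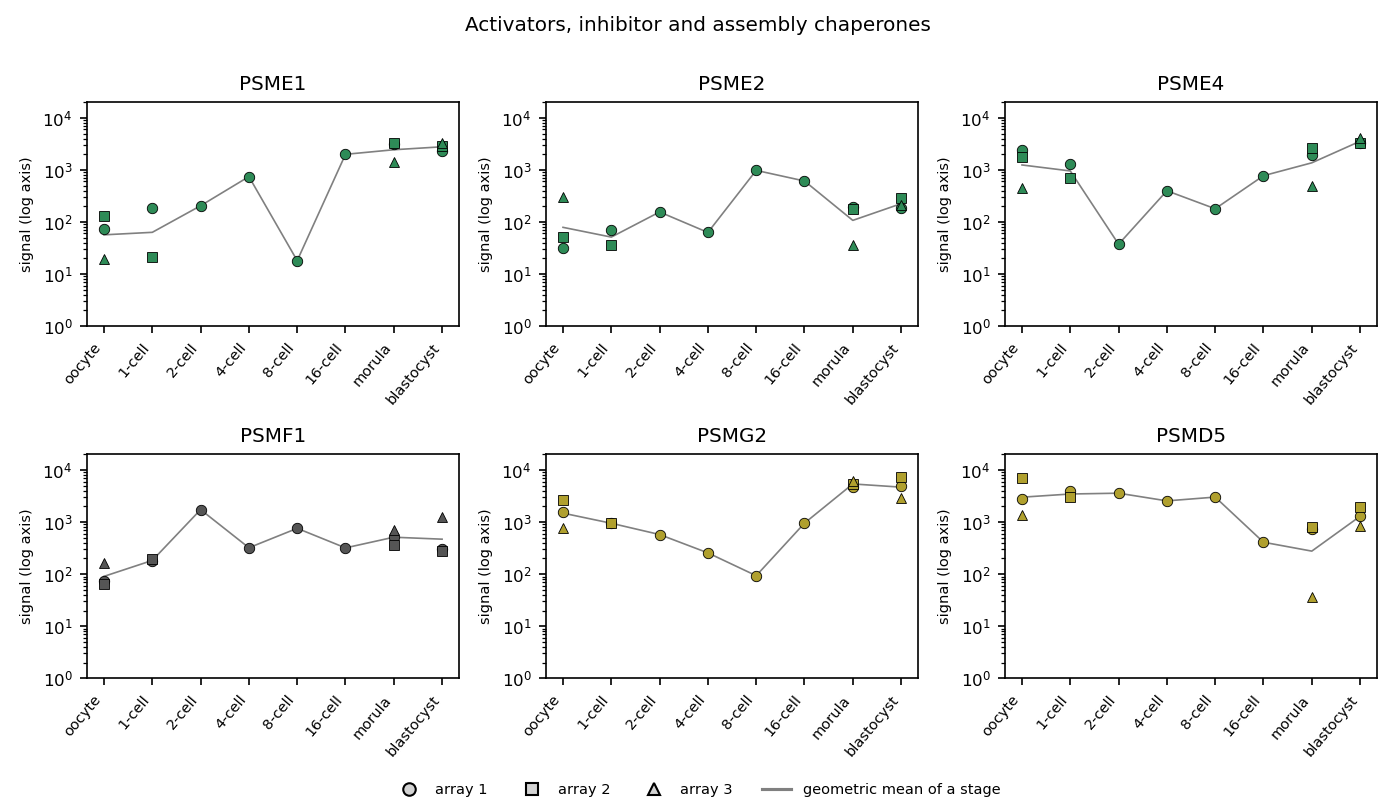
Signals on a log axis by stage for the activators PSME1, PSME2 and PSME4 (top) and for the inhibitor PSMF1 and the chaperones PSMG2 and PSMD5 (bottom), with a marker per array number and a line through the geometric mean of each stage. PSME1 falls to 18.0 on the 8-cell array between higher neighbours, PSME4 and PSMG2 have their lowest signals on the 2-cell and 8-cell arrays, and PSMD5 is lowest on morula 3.

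The assembly chaperones help to build the core (PSMG1, PSMG2 and PSMG3) or the base of the cap (PSMD5, PSMD9 and PSMD10) and leave before the particle is complete. PSMG2 had 4803, 5463 and 6039.7 in morulae and 4839, 7289.9 and 2934 in blastocysts, against 1582, 2661 and 781 in oocytes, with log2 changes of 1.85 (SE 0.48, adjusted p = 0.0238) and 1.65 (SE 0.48, adjusted p = 0.0392). Early embryos had 955 and 944 at the 1-cell stage, then 577 at the 2-cell, 256 at the 4-cell, 93.4 at the 8-cell and 955 at the 16-cell stage, with the lowest value on the 8-cell array. Its morula call was lost without oocyte 1, oocyte 3 or any morula array (adjusted p = 0.0505 to 0.0720), and its blastocyst call without oocyte 1, oocyte 3, blastocyst 1 or blastocyst 2 (adjusted p = 0.0845 to 0.134).

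PSMG1, which pairs with PSMG2, had 8003, 7344 and 3860.4 in morulae and 5628, 7012 and 7092 in blastocysts, against 8136, 8699 and 7768 in oocytes. It was at 8062 and 8709 in 1-cell embryos and then at 7896 at the 2-cell, 8436 at the 4-cell, 3035 at the 8-cell and 6537 at the 16-cell stage. PSMG1 did not pass a test, with log2 changes of -0.42 (SE 0.29, adjusted p = 0.36) and -0.32 (SE 0.29, adjusted p = 0.501). PSMG3 stayed low, with 81.7, 39.0 and 126 in morulae and 107, 46.2 and 66.6 in blastocysts, against 83.7, 142 and 55.5 in oocytes, and log2 changes of -0.19 (SE 0.45, adjusted p = 0.827) and -0.28 (SE 0.45, adjusted p = 0.737). Early signals of PSMG3 were 62.9 and 43.3 in 1-cell embryos, then 46.0 at the 2-cell, 45.2 at the 4-cell, 38.6 at the 8-cell and 60.2 at the 16-cell stage.

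PSMD10, also known as gankyrin, had 7344, 6213 and 1226 in morulae and 7849, 6506 and 4806 in blastocysts, against 555, 191 and 408 in oocytes. Its log2 changes were 3.38 (SE 0.66, adjusted p = 0.00544) and 4.09 (SE 0.66, adjusted p = 0.00199), and no groups overlapped. It was already at 2132 and 1724 in 1-cell embryos, above every oocyte array, then at 31.0 at the 2-cell, 993 at the 4-cell, 5109 at the 8-cell and 6121 at the 16-cell stage. The 1-cell change of 2.39 (SE 0.74, adjusted p = 0.321) did not pass.

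PSMD5 had 742, 794 and 36.1 in morulae and 1333, 1937 and 838 in blastocysts, against 2834, 7111 and 1354 in oocytes. It fell in morulae, with a log2 change of -3.26 (SE 1.00, adjusted p = 0.0473). In blastocysts it did not pass, at -1.21 (SE 1.00, adjusted p = 0.464). Early embryos had 3903 and 3081 at the 1-cell stage, then 3594 at the 2-cell, 2557 at the 4-cell, 3025 at the 8-cell and 410.3 at the 16-cell stage. The 16-cell array was the first below all oocyte arrays. Morula 3 was far below the other morula arrays, and the call was lost without it, without oocyte 1 or without oocyte 2 (log2 -3.30 to -1.95, adjusted p = 0.0684 to 0.157). PSMD9 did not pass, at 0.19 in morulae and -0.72 in blastocysts, and neither did PSME3IP1, at -0.02 and -0.51.

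Between fertilization and genome activation there was little replicated change. No member passed the limma test in 1-cell embryos against oocytes, where 0.35% of all named genes did, and 2 members, PSMC2 and PSMD10, had an unadjusted p below 0.05, a smaller share than the 8.92% of all named genes. Without the arrays numbered 3, PSMA6 and PSMC1 passed in 1-cell embryos, both higher, while the higher count over all probe sets moved from 56 to 362. The mean of the 2-cell, 4-cell and 8-cell arrays stood higher than the oocytes for 2 members, PSMC2 (log2 2.31 (SE 0.39, adjusted p = 0.00812)) and PSMF1 (2.84 (SE 0.61, adjusted p = 0.0238)), against a background of 4.23%. It stood lower for 5 members, against a background of 3.13%. These were PSMB4 (-3.18 (SE 0.44, adjusted p = 0.00315)), PSME4 (-2.96 (SE 0.74, adjusted p = 0.0444)), PSMG2 (-2.53 (SE 0.48, adjusted p = 0.0147)), PSMA3 (-2.53 (SE 0.38, adjusted p = 0.00475)) and PSMB1 (-2.40 (SE 0.30, adjusted p = 0.00204)). In this fit the spread of single arrays was taken from the replicated stages. With these 3 arrays fitted as a group of their own against the oocytes, 0 members passed in either direction. That fit called 0 of all 24016 probe sets, so its count does not set the members apart from other genes.

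The lower calls leaned on the 8-cell array, and over all probe sets the lower count moved from 580 to 348 without it. Without it 1 member was lower, and PSMA3 changed by -0.64 (adjusted p = 0.505), PSMB1 by -1.09 (adjusted p = 0.0982), and PSMG2 and PSME4 were also no longer past the test. Without the 2-cell array PSMF1 and PSME4 lost their calls too, and PSMF1 and PSME4 lost theirs without oocyte 1 or oocyte 2, as did PSMG2 without oocyte 1. Without oocyte 3 the higher count was 6, and without all arrays numbered 3 it was 8, with PSMA6, PSMC1, PSMC3, PSMC5, PSMD2 and PSME2 added. Over all probe sets the higher count moved from 908 to 1258 and to 2376 in these fits.

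The single arrays can only be placed against the ranges of the replicated stages, with no test. On the 8-cell array 17 of 40 members, or 42.5%, lay below every oocyte array, where 30.0% of all named genes did. They included 3 of 6 alpha subunits, 4 of 7 standard beta subunits and 2 of 3 activators, but 0 of the 3 inducible subunits and not the inhibitor. A further 12 members, or 30.0%, lay above every oocyte array there, near the 28.6% of all named genes. On the 16-cell array 24 members, or 60.0%, lay above every oocyte array, against 40.4% of all named genes. The 16-cell array was above all of the 2-cell, 4-cell and 8-cell arrays for 22 members, or 55.0%, against 37.3% of genes, and below every morula array for 16, or 40.0%, against 29.2%.

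For the 17 genes higher in morulae, the largest step between consecutive stages up to the morula was from the 8-cell to the 16-cell array in 11, as it was in 51.6% of the 1619 named genes higher in morulae. Of the 11, PSMA6, PSMB6, PSMC2, PSMC3, PSMD2, PSMD6, PSME1 and PSMG2 had their largest fall in the step just before, from the 4-cell to the 8-cell array. Their rise thus starts from a level on 1 array with no replicate, and such falls were not counted over all named genes. The largest step up came between the 2-cell and 4-cell arrays for PSMB5, PSMC1 and PSMD10. It came between the 1-cell and 2-cell stages for PSMC5 and PSMF1, and between the 16-cell array and the morula for PSMB10. On a scale where the oocyte mean is 0 and the morula mean is 1, the 17 genes had medians of 0.30, 0.50, 0.25 and 0.88 on the 2-cell, 4-cell, 8-cell and 16-cell arrays. For the 1619 genes these medians were 0.05, 0.12, 0.07 and 0.87 in the same order of stages. The members were spread widely before the 16-cell array, from -2.04 to 1.24 on the 8-cell array, and the difference from other genes was not tested.

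**Figure D5:**
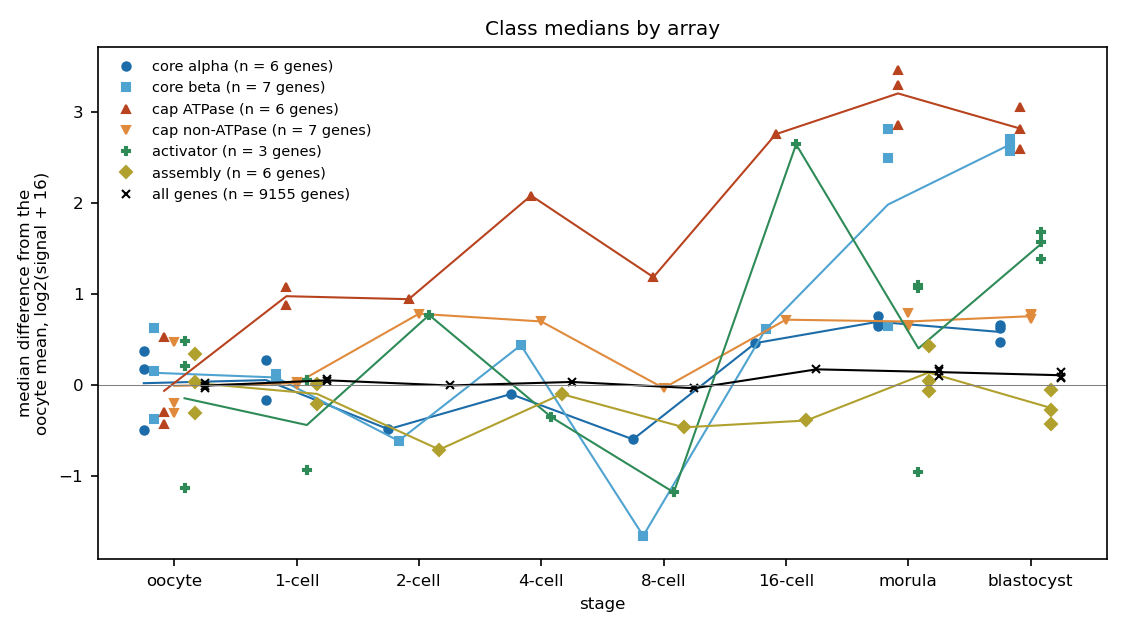
Median difference from the oocyte mean over the genes of each class, in log2(signal + 16), for each array by stage, with lines through the stage means. The cap ATPases stand above the other classes shown at every stage after the oocyte, the standard beta subunits drop to -1.65 on the 8-cell array, and the median over all 9155 genes stays between -0.03 and 0.18.

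By class, the cap ATPases had medians relative to the oocyte mean of 0.94, 2.08, 1.19 and 2.75 on the 2-cell, 4-cell, 8-cell and 16-cell arrays. The standard beta subunits stood at -0.61, 0.44, -1.65 and 0.61 on the same arrays, the alpha subunits at -0.48, -0.10, -0.59 and 0.46, and the activators at 0.77, -0.35, -1.18 and 2.64. The other cap subunits stood at 0.78, 0.70, -0.03 and 0.72. Replicates of the members were less close than those of all genes in oocytes, with a median SD on the log2 scale of 0.72 for members and 0.48 for all genes. They were about as close as other genes elsewhere, with median SDs of 0.35 and 0.41 in morulae and 0.37 and 0.45 in blastocysts.

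Of 32 listed genes that work with the proteasome, 22 were measured. In morulae 3 rose and 2 fell, in blastocysts 4 rose and 1 fell, in the 2-cell to 8-cell mean 2 rose and 1 fell, and in the 1-cell and the blastocyst-to-morula comparisons 0 passed (limma, unadjusted p below 0.05 for 3 and 1). Of 22 genes the morula and blastocyst counts were near or below the background. It was 17.7% higher and 8.63% lower in morulae, and 17.8% higher and 8.95% lower in blastocysts. The counts in the 2-cell to 8-cell mean were above the background of 4.23% higher and 3.13% lower, but rest on few genes. The unadjusted p was below 0.05 for 8.92% of named genes in the 1-cell comparison and 9.26% in the blastocyst-to-morula comparison. VCP, the ATPase that extracts ubiquitin-tagged proteins for the proteasome, had 8187, 7890.1 and 8119.6 in morulae, against 1714, 1709.6 and 1528 in oocytes, a log2 change of 2.28 (SE 0.22, adjusted p = 0.000126). The groups lay far apart. NFE2L2, a transcription factor of the oxidative stress response, had 1921, 1257 and 3114 in morulae, against 99.7, 198 and 567 in oocytes, with log2 changes of 3.02 (SE 0.64, adjusted p = 0.00828) in morulae and 3.98 (SE 0.64, adjusted p = 0.00189) in blastocysts. UBE3A, a ubiquitin ligase that binds the cap, had 2285, 2268 and 1229 in morulae, against 432, 212 and 122 in oocytes, a log2 change of 2.95 (SE 0.54, adjusted p = 0.0038).

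POMP, the chaperone that seats the beta ring, fell. It had 1094, 1349 and 356 in morulae, against 4188, 5776 and 2730.4 in oocytes, a log2 change of -2.30 (SE 0.50, adjusted p = 0.00976), and it did not pass in blastocysts, at -0.45 (SE 0.50, adjusted p = 0.6). AKIRIN2, which brings proteasomes into the nucleus, had 2339, 3359 and 3946 in morulae and 3348, 769 and 2662 in blastocysts, against 9937, 9480.1 and 10057 in oocytes, with log2 changes of -1.64 (SE 0.48, adjusted p = 0.0386) and -2.36 (SE 0.48, adjusted p = 0.00694). The morula call of AKIRIN2 was lost in 7 of 17 alternative fits, among them that without the arrays numbered 3. ADRM1, a ubiquitin receptor of the cap, was high on few arrays, at 909.7, 411 and 3.35 for 2-cell, 4-cell and 8-cell embryos, against 15.6, 24.5 and 11.3 in oocytes. Its 2-cell to 8-cell change was 2.59 (SE 0.28, adjusted p = 0.000996). In that same comparison VCP changed by 1.58 (SE 0.22, adjusted p = 0.00358) and UBA1, the main enzyme that activates ubiquitin, by -1.37 (SE 0.28, adjusted p = 0.0203). With those 3 arrays fitted as a group, ADRM1, VCP and UBA1 did not pass (adjusted p = 0.542, 0.0939 and 0.315). That fit called 0 of all 24016 probe sets. USP14, a deubiquitinase on the cap, passed in blastocysts alone, with 433, 1352 and 597 in blastocysts, against 187, 303 and 65.5 in oocytes and a log2 change of 2.05 (SE 0.60, adjusted p = 0.0388), lost in 8 of 17 alternative fits.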

How the data were processed

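Per the labels' protocols, total RNA went through 3 rounds of amplification and was read, as biotin-labelled RNA, on Affymetrix arrays of the bovine genome. The table the authors deposited holds linear intensity values of 24128 probe sets for 15 arrays. How probes were summarised and arrays scaled, and with which software, is not given in the sources used here. The lowest value was 0.39, the highest 20788, and 2.56% were exactly 1.00. No detection call was used, and the number of arrays limits the precision.

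Values were used as deposited. After 112 control probe sets were left out, 24016 were tested on log2(value + 16), the scale of every log2 change, with limma 3.58.1 in R 4.3.3. A mean per stage was fitted to all 15 arrays, with an intensity trend in the variance, 7 residual degrees of freedom, and adjusted by Benjamini-Hochberg over these probe sets, with calls at 0.05. The labels call the replicates biological but name no separate animals, so the spread behind the p-values is that between these arrays and may be technical. The procedure was tested on simulated data. Symbols came from the platform annotation, updated through gene identifiers to RefSeq (ARS-UCD2.0).

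The members and lists were chosen with earlier results of these data known. Values on every array are given for the 4 largest rises and falls past the test in each comparison, the catalytic pairs, activators, inhibitor, core chaperones, PSMD4 and PSMD14. Some other genes are shown in the same way as examples of their class, chosen after their values were seen. Deviations of same-numbered arrays from their stage means had correlations of 0.142, 0.107 and 0.182 between morulae and oocytes. They were 0.278, 0.276 and 0.285 between blastocysts and oocytes, and 0.195, 0.106 and 0.306 between blastocysts and morulae. Between 1-cell embryos and oocytes they were 0.183 and -0.116. Arrays of different numbers were not correlated, so these values cannot show that the numbers pair arrays. The main fit used no pairing, and the number was a block in an alternative fit only. Sequences were not used here. Figures were drawn with matplotlib 3.10.9.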

Additional observations from a re-analysis of the deposited data

How the results depend on the processing

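No log2 change past the test turned its sign under any alternative. The replicate block gave 19 higher and 2 lower members in morulae, 17 and 1 in blastocysts, and 0 in the 1-cell and the blastocyst-to-morula comparisons, and it ended no call of a member. Over all probe sets the block moved the higher count from 2830 to 3404 in morulae and from 2856 to 3379 in blastocysts. No fit with this block was made for the 2-cell to 8-cell mean because the labels number no single array. Leaving out 1 array at a time gave 13 to 20 higher and 0 to 1 lower in morulae, 10 to 20 higher and 1 lower in blastocysts, 1 to 6 higher and 1 to 6 lower in the 2-cell to 8-cell mean, and 0 in both other comparisons. In blastocysts the lowest count, 10, came without oocyte 1. With 1 array of the compared stages left out, 2081 to 3129 of all probe sets were higher in morulae and 2111 to 2881 in blastocysts. The main fit had 2830 and 2856. With the compared stages alone, morulae had 15 higher and 0 lower, blastocysts 9 higher and 1 lower, and the 2-cell to 8-cell mean 0 and 0. For that mean 0 of all 24016 probe sets passed, while 2305 were higher and 1284 lower in morulae, and 2238 and 1280 in blastocysts. Without the arrays numbered 3 there were 23 higher and 1 lower in morulae, 21 and 1 in blastocysts, 8 and 6 in the 2-cell to 8-cell mean, and 2 higher in 1-cell embryos. The counts over all probe sets rose there too. The lower count in morulae was 1 with a pseudocount of 1 and with no intensity trend, and in blastocysts it was 2 with quantile normalization, with no intensity trend and with the mean of all probe sets of a gene. Centring arrays on their medians moved the median morula change over all probe sets from 0.04 to -0.14, and PSMB10 and PSMF1 were lost there. Leaving out PSME3IP1 changed no count of members past the test. Called in morulae under all 18 alternatives were PSMA1, PSMB4, PSMB5, PSMB6, PSMC1, PSMC2, PSMC3, PSMC5, PSMC6, PSMD6, PSMD10 and PSME1. The causes were not tested.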
